A study of Mus musculus with 6 samples.

Results

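Crym, Ttr, Dio1, Slc16a10, Thrb and Thra, genes that bind, carry, activate or sense thyroid hormone, were followed in the liver. They are 6 of the 18193 genes that the array annotation names. They were named by symbol, and each was represented by the probe set selected on the highest mean over all 6 arrays, taken among the probe sets that the annotation pairs with that symbol alone. The livers came from 3 p14 KO mice and 3 WT mice, all male C57BL/6 animals aged 6 weeks, with 1 Affymetrix array per mouse, on which a probe set is the group of short probes that reports a transcript. In the KO mice p14 had been deleted conditionally in the liver, and the labels call the other mice p14 WT and controls. Which promoter drove the deletion, and whether the controls carried a conditional allele or the recombinase, is not given in the sources used here. p14 is encoded by Lamtor2 and is a subunit of the Ragulator complex on late endosomes. Values are log2 expression levels, differences are KO minus WT on that scale, and the study compared the groups to find genes whose expression differs without p14.

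Thyroid hormone leaves the thyroid mostly as the prohormone T4 and travels in plasma bound to carrier proteins, most of which the liver secretes. Membrane transporters take it into cells, deiodinases turn T4 into the active form T3 or inactivate it, and T3 binds nuclear receptors that pair with RXR on DNA and switch genes of lipid, cholesterol and glucose metabolism. The liver is a main site of T3 production and one of the organs in which T3 sets many transcripts, largely through the receptor that Thrb encodes. Crym encodes mu-crystallin, a cytosolic protein that binds T3 in the presence of NADPH and is also a ketimine reductase.

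Promoter windows are shown for 3 of the genes because T3 receptors can bind the half-site AGGTCA. Of these genes Dio1 is the established T3 target in liver. Receptor binding was not measured here, and a half-site alone does not show T3 regulation. The windows are RefSeq sequences of build GRCm38.p6, running 5′ to 3′ on the strand of the gene from 250 bases before the annotated start to 50 bases after it. Capitals mark the half-site, searched on both strands. The Dio1 window is chr4:107307119-107307418, minus strand, the Slc16a10 window chr10:40142205-40142504, minus strand, and the Thrb window chr14:17660710-17661009, plus strand.
Dio1: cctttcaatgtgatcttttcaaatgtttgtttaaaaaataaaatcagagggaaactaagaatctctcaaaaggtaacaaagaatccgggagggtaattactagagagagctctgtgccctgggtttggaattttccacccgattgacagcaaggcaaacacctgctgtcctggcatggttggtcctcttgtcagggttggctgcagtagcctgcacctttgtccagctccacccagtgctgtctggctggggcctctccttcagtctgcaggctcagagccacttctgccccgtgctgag
Slc16a10: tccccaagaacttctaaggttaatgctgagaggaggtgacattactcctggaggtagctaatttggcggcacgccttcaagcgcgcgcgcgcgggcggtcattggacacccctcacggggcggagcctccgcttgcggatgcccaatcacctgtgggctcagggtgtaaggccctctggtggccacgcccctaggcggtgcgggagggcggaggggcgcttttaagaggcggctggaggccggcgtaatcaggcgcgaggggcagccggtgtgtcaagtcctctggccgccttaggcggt
Thrb: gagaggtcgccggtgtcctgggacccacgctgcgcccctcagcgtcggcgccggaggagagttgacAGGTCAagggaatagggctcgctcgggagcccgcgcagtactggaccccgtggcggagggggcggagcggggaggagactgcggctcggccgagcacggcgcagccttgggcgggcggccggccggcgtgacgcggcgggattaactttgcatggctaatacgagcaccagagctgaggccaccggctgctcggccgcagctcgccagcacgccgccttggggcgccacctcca
One half-site was found, on the plus strand of the Thrb window and beginning 184 bases before the start. The windows of Dio1 and Slc16a10 held 0, and 16.3% of the 32851 promoter windows of the same length held at least 1. A direct repeat of the half-site spaced by 4 bases, written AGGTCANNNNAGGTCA, was in 0 of these windows and in 0.0152% of all. A second annotated start of Thrb had 0 half-sites. Windows of 3 of the 6 genes were searched. Crym and Thra had no window in the set, and Ttr was left out of the search.

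Lamtor2, the targeted gene, measured 10.08, 10.19 and 10.11 on the KO arrays and 11.32, 11.29 and 11.35 on the WT arrays. KO livers thus held 43.8% of the WT signal, with every KO array below every WT array. The liver identity of the samples was shared by both groups, with 9 of 9 measured hepatocyte markers at or above log2 4 on every array and list means of 15.42 to 15.46 in KO and 15.44 to 15.49 in WT. Skeletal muscle transcripts stood apart on WT 2, where all 10 markers reached log2 4 and their mean was 11.04, against 2.39 to 2.42 in KO livers and 2.41 and 2.56 on WT 1 and WT 3. Macrophage markers had list means of 8.87 to 10.04 in KO and 10.34 to 10.47 in WT, with 7 of 10 lower on every KO array than on any WT array, as were 1400 of the 10009 genes that passed the filter used below. Liver endothelial markers had list means of 9.17 to 9.77 in KO and 9.82 to 9.97 in WT, with 3 of 8 lower on every KO array. Of the 8, 1 was called as lower in limma, Lyve1 (adjusted p = 0.0353), among 15 such genes of the 10009, 0.150%. Stellate cell markers had list means of 8.22 to 8.51 in KO and 8.49 to 9.42 in WT, the highest on WT 2, with a median difference of -0.38 and 2 of 8 lower on every KO array. Positive acute-phase genes had list means of 14.09 and 13.99 on KO 1 and KO 2 and 11.99 on KO 3, with WT livers at 11.78 to 12.25. Of cholangiocyte markers, 4 of 5 were below log2 4 on every array, among them Krt19 and Krt7. In whole liver, fewer cells of a type and less RNA per cell cannot be told apart.

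Crym was the gene of this group with a large difference between KO and WT livers. Its value was 3.67 on each of the 3 KO arrays, against 7.47, 7.36 and 8.33 on the WT arrays. The KO livers were all at one tied value, below the level of log2 4 used to separate measured from dim probe sets, and the WT livers were all far above it. The WT mean was 7.72 ± 0.53 (SD, n = 3). It lay 13.2-fold above log2 4, the level under which all KO values fell. That fold is taken from the WT mean and leaves out the spread of the WT mice, so it is no lower limit. The fitted difference was -4.05, with a 95% interval of -4.70 to -3.41. Crym was chosen for this difference, and these values are therefore a description. In the limma fit over 10009 genes it was 1 of the 17 genes called (Benjamini-Hochberg adjusted p under 0.05), which is 0.170% of the genes tested, and 1 of 15 called as lower, 0.150%.

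A tie of the 3 KO values with every WT array above it was rare among the genes tested. Ties alone were not counted. Crym is measured by a single probe set, so no further probe set could be set beside it. Its tied value of 3.67 lies above the lowest value of the table, 2.185. Tied values differed between probe sets, and Hr, named here for its tie, was at 5.49 on every array. Whether 3.67 is the floor of the Crym probe set was not tested. Among the 10009 genes, 4 had their 3 KO values tied at the gene's lowest value with every WT array above it, and 0 had the reverse. Besides Crym these were Kif22, a kinesin of chromosome movement, at 8.56 on each KO array and 8.80 to 9.33 on the WT arrays, Zmat3, a p53 target, and the noncoding Snhg14. Their differences were -0.55 for Kif22, -0.43 for Zmat3 and -0.11 for Snhg14, against -4.05 for Crym. A tied group has no measured spread, and the error of the Crym difference rests on the WT arrays and on the spread shared over genes.

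The call of Crym depended on which arrays entered the fit. With WT 1 left out the difference was -4.18 and the limma adjusted p 0.126, and with WT 2 left out they were -4.23 and 0.114. With KO 1 or KO 2 left out the limma adjusted p-values were 0.083 and 0.12, while the difference could not move because the KO values are tied. Without KO 3 or without WT 3 Crym was called, with limma adjusted p-values of 0.0267 and 0.00129. The Crym values in the fit are the same whichever KO array is left out. The limma adjusted p-values without a KO array therefore differ only through the other genes, by the shared spread and the adjustment. With no filter on dim genes the limma adjusted p was 0.148. Crym is also made in skeletal muscle, and it measured 7.36 on WT 2, the array with muscle transcripts, and 7.47 and 8.33 on WT 1 and WT 3. The macrophage and endothelial list means were lower on every KO array than on any WT array, as Crym was. The part of the muscle, macrophage, endothelial and stellate cell lists in the result was not tested.

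**Figure D1:**
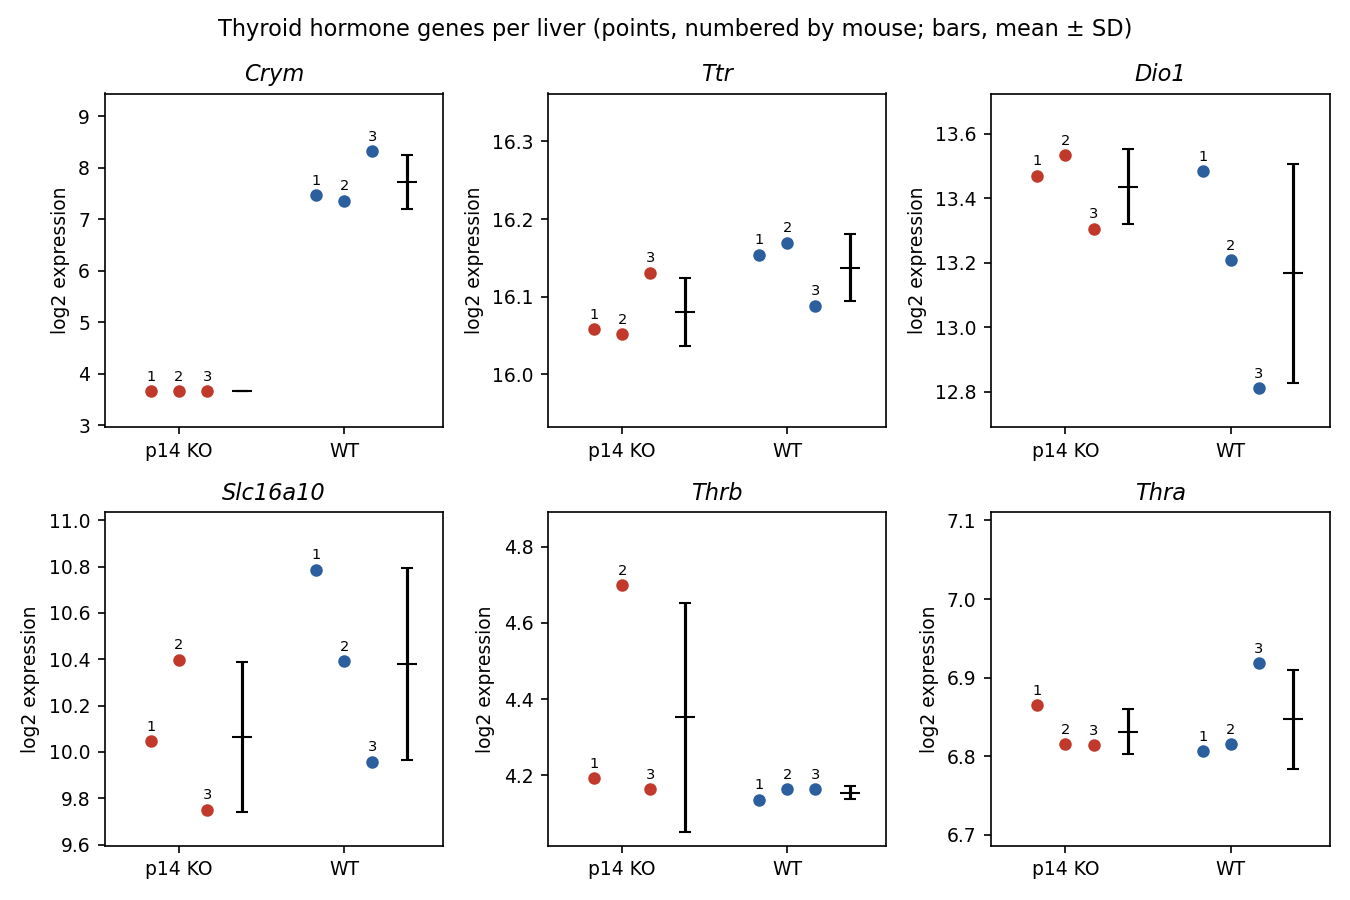
Log2 expression of the 6 genes in each liver, with a panel per gene and its own vertical range; points are single mice numbered as in the labels, KO left of WT, and bars are the mean ± SD of 3 mice. Crym is tied at 3.67 in the KO mice and lies between 7.36 and 8.33 in the WT mice, and the groups overlap in the other 5 panels, where the ranges shown are much narrower.

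The other 5 genes did not pass the test, and for each of them the KO and WT arrays overlapped. Crym was thus 1 of 6 with groups that do not overlap, against 20.5% of all genes tested in either direction. All 6 genes had passed the filter on dim values, which asked for log2 4 on at least 3 of the 6 arrays. Crym met it through the WT arrays alone, and Thrb stood barely above it.

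Ttr encodes transthyretin, a carrier of T4 and of retinol-binding protein that hepatocytes secrete. It measured 16.06, 16.05 and 16.13 on the KO arrays and 16.15, 16.17 and 16.09 on the WT arrays. KO 1 and KO 2 were the lowest, while KO 3 lay among the WT livers. The difference was -0.06 (95% interval -0.21 to 0.09, limma adjusted p = 0.666), so that the interval spans folds of 0.866 to 1.07. The further probe sets had differences of -0.12, -0.06 and -0.03, and KO 1 and KO 2 were the pair of lowest arrays in 3 of the 4. These are the arrays on which acute-phase transcripts were high, and transthyretin is known as a protein whose production falls in the acute phase. Whether the acute-phase transcripts and Ttr are linked was not tested. The sign of the Ttr difference turned, to 0.006 with quantile normalisation and to 0.0096 with median centring. The highest value of the whole table was 16.33, so Ttr lies near the upper end of the measured range, and whether this compresses differences was not tested.

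Dio1 encodes type 1 deiodinase, the selenoenzyme that removes iodine from T4 to give T3 in liver and kidney. Its single probe set measured 13.47, 13.53 and 13.31 on the KO arrays and 13.48, 13.21 and 12.81 on the WT arrays. WT 3 was the lowest and WT 1 lay within the KO range. The difference was 0.27 (95% interval -0.18 to 0.72, limma adjusted p = 0.51), which allows folds from 0.883 to 1.64. It was 0.09 without WT 3 and 0.43 without WT 1, with limma adjusted p-values of 0.783 and 0.513. KO 2 was above all 3 WT arrays, and KO 1 and KO 3 were above WT 2 and WT 3.

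Slc16a10 encodes MCT10, a membrane transporter of aromatic amino acids that also carries T3 and T4. It measured 10.05, 10.40 and 9.75 on the KO arrays and 10.79, 10.39 and 9.96 on the WT arrays. The mice of each group were spread over a similar range, wider than the distance between the group means. The difference was -0.31 (95% interval -0.96 to 0.33, limma adjusted p = 0.578). It was -0.16 without KO 3, -0.48 without KO 2, -0.11 without WT 1 and -0.52 without WT 3, with limma adjusted p-values of 0.498 to 0.873. A further bright probe set had nearly the same values on each array and a difference of -0.26. A dimmer one measured 5.49, 5.29 and 5.36 on the KO arrays and 6.11, 5.61 and 6.09 on the WT arrays. Here every KO array was below every WT array, with a difference of -0.56 (95% interval -0.94 to -0.17), and it was not called when every probe set was tested (limma adjusted p = 0.264). The remaining probe set was below log2 4 on all arrays. Where these probe sets lie along the transcript was not analysed here.

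Neither receptor gene passed the test. Thrb, the receptor with the main part in the hepatic response to T3, measured 4.19, 4.70 and 4.16 on the KO arrays and 4.14, 4.16 and 4.16 on the WT arrays. KO 2 alone stood away from the close values of the others, and KO 3, WT 2 and WT 3 were tied at 4.16. The difference of 0.20 (95% interval -0.19 to 0.58, limma adjusted p = 0.561) was 0.02 without KO 2, and a probe set this close to the floor can show little of a change. Thra, the receptor that predominates in heart and bone, measured 6.86, 6.82 and 6.81 on the KO arrays and 6.81, 6.82 and 6.92 on the WT arrays. The difference was -0.02 (95% interval -0.17 to 0.14, limma adjusted p = 0.917), and its sign turned to 0.03 with quantile normalisation and to 0.05 with median centring.

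A second probe set of Thra did not follow the first. It measured 4.97, 5.21 and 5.61 on the KO arrays and 5.61, 5.73 and 5.76 on the WT arrays, a difference of -0.44 (95% interval -0.86 to -0.02). KO 1 and KO 2 were the lowest, and KO 3 had the same value as WT 1. With every probe set tested it was not called (limma adjusted p = 0.339). The remaining probe set of Thra was tied at 4.52 on every array except WT 3, at 4.49, and such a tie can show little of a change. Over all 13 probe sets of the 6 genes that passed the filter, 1 was called, that of Crym, against 0.0866% of the 17316 probe sets tested. Nr1d1, chosen for its position, the circadian repressor whose gene overlaps the end of Thra on the opposite strand, measured 8.54, 8.04 and 7.83 in KO and 8.17, 8.87 and 8.38 in WT, with a difference of -0.34 (limma adjusted p = 0.545).

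**Figure D2:**
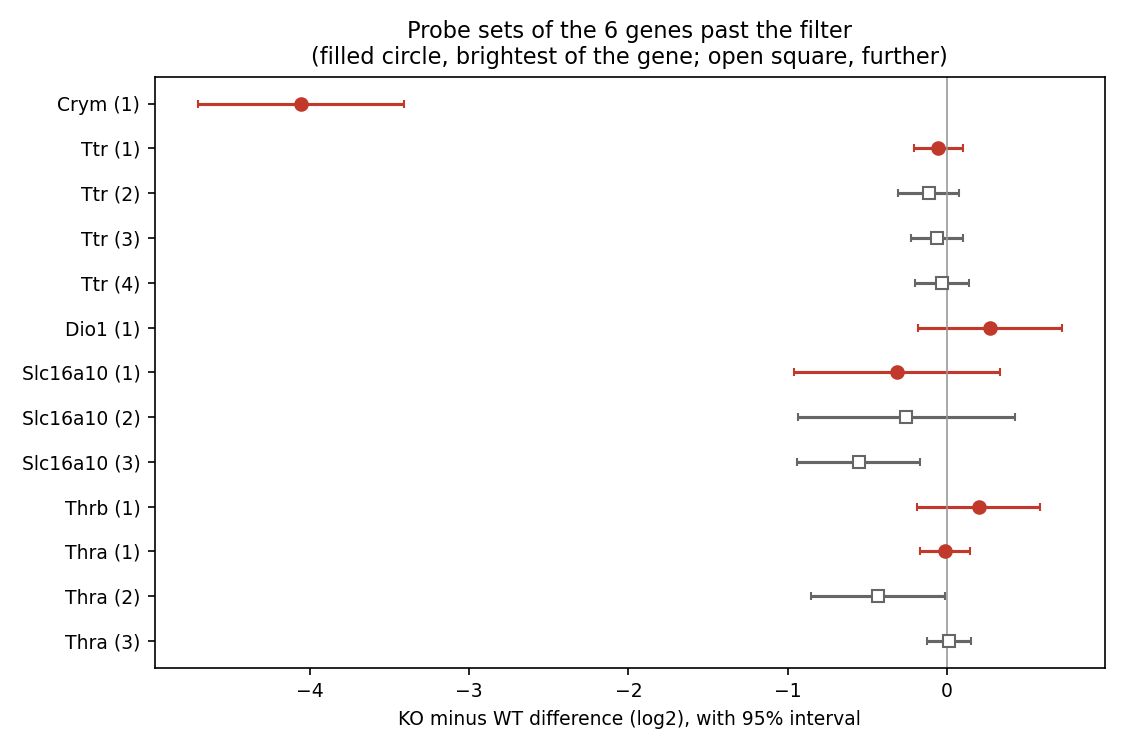
KO minus WT difference (log2) of every probe set of the 6 genes that passed the filter, with its 95% interval from the fit over all probe sets; numbers in brackets count the probe sets of a gene from the one used. Crym lies at -4.05, and the other intervals include 0 except those of Slc16a10 (3), -0.94 to -0.17, and Thra (2), -0.86 to -0.02.

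The wider thyroid hormone pathway was described with 6 lists of genes. Of their 70 genes, 61 had a probe set here and 56 passed the filter. Of the 56, 1 was called, Crym, with 20 higher and 35 lower in KO, Hr tied, and a median difference of -0.05, against -0.04 over all genes. Without the 6 genes above, 0 of 50 were called in limma, 12 (24.0%) had an unadjusted p under 0.05, against 14.5% of all genes tested, and the groups did not overlap for 16 (32.0%), against 20.5%.

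Transport across the plasma membrane had 7 genes past the filter, with 0 called in limma, 1 at an unadjusted p under 0.05 and a median of -0.06. Slco1a1, an organic anion transporter that can carry thyroid hormones, measured 12.32, 11.65 and 12.33 on the KO arrays and 2.29, 2.29 and 7.53 on the WT arrays. Every KO array was above every WT array, with a limma adjusted p of 0.167 and a wide spread among the WT mice. Slco1a4, a related transporter, had a difference of -0.15. Slco1c1, Slc7a5 and Slc7a8 were dim and were not tested.

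Deiodination and conjugation had 5 genes past the filter, 0 called in limma and 2 at an unadjusted p under 0.05, with a median of 0.27. The sulfotransferase genes Sult1b1 and Sult1a1, whose enzymes can sulfate iodothyronines, differed in opposite directions. Sult1b1 measured 9.51, 9.84 and 9.43 in KO and 9.20, 9.16 and 9.24 in WT, a difference of 0.40 (limma adjusted p = 0.282). Sult1a1 measured 14.07, 14.41 and 14.27 in KO and 14.69, 14.53 and 14.44 in WT, a difference of -0.31 (limma adjusted p = 0.327). In neither gene did the groups overlap. The glucuronosyltransferase gene Ugt2b1 had a difference of 0.36. Dio2, a deiodinase chosen after its values were seen, lay between 2.77 and 2.80 on all arrays.

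Binding proteins made the list that holds Crym and Ttr, with 6 genes past the filter, 1 called as lower and a median of -0.23. The list is small, and its other genes were named after their values were seen. Pkm, the glycolytic pyruvate kinase whose human monomer binds T3, measured 5.97, 6.60 and 6.44 in KO and 7.09, 8.63 and 7.31 in WT, a difference of -1.34 (limma adjusted p = 0.295). Its highest value was on WT 2, the array with muscle transcripts. Serpina7, the thyroxine-binding globulin of plasma, differed by -0.41 with overlapping groups, and Alb, for albumin, by -0.05. Aldh1a1, a retinaldehyde dehydrogenase, differed by 0.19, with every KO array above every WT array (limma adjusted p = 0.338).

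Receptors and RXR partners had 0 of 5 called in limma, 0 at an unadjusted p under 0.05 and a median of -0.01 (range -0.04 to 0.20). Rxra, the main RXR of liver, had a difference of -0.04 (95% interval -0.34 to 0.26). Coactivators and corepressors had 0 of 13 called in limma and 2 at an unadjusted p under 0.05, with a median of -0.07. Those were the related acetyltransferase genes Ep300 and Crebbp, at -0.28 and -0.26 with limma adjusted p-values of 0.317 and 0.336. The coactivator Ncoa2 differed by 0.16.

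Genes known to be induced by T3 in liver lay on both sides of 0. Of 21 past the filter 8 were higher and 12 lower in KO and Hr was tied, with 0 called in limma, 5 at an unadjusted p under 0.05 and a median of -0.09. Thrsp, which encodes the lipogenic protein Spot 14 and is a standard reporter of T3 action, measured 14.60, 14.85 and 14.71 in KO and 14.26, 14.19 and 14.38 in WT. The KO livers were all higher, by 0.44 (95% interval 0.21 to 0.67, limma adjusted p = 0.196). Gpd2, the mitochondrial glycerol-3-phosphate dehydrogenase, measured 11.09, 11.04 and 11.02 in KO and 11.53, 11.22 and 11.49 in WT. Cyp7a1, the rate-limiting enzyme of bile acid synthesis, measured 12.89, 13.07 and 12.87 in KO and 13.94, 13.25 and 13.65 in WT. In both genes every KO liver was below every WT liver, with differences of -0.36 for Gpd2 and -0.67 for Cyp7a1, each at a limma adjusted p of 0.25. G6pc, glucose-6-phosphatase, named after its values were seen, measured 13.71, 13.43 and 13.91 in KO and 11.53, 12.65 and 13.16 in WT, with a limma adjusted p of 0.304. Bcl3, also named after its values were seen, measured 8.63, 8.41 and 8.30 in KO and 8.97, 8.66 and 8.77 in WT. Its difference was -0.36 (limma adjusted p = 0.305), and it completes the 5 genes at an unadjusted p under 0.05.

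**Figure D3:**
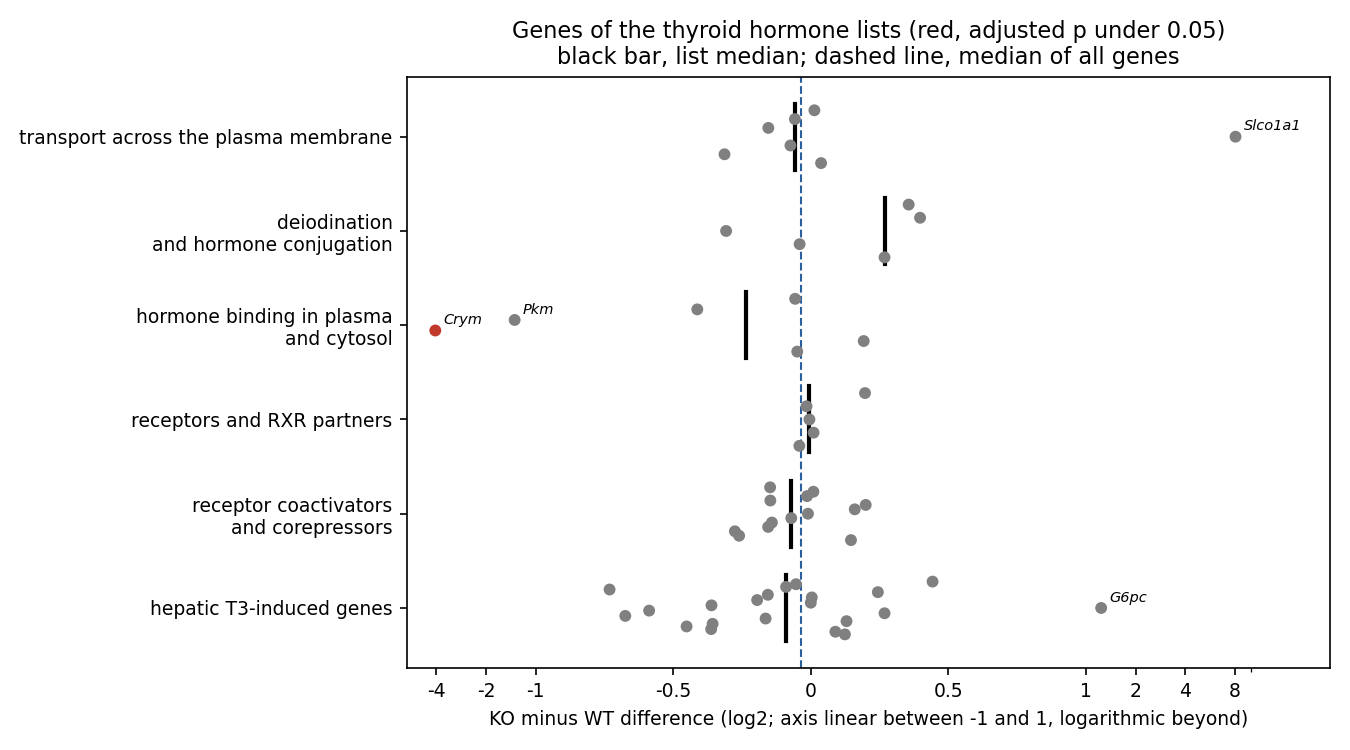
KO minus WT difference (log2) of each gene past the filter in the 6 thyroid hormone lists, on an axis that is linear between -1 and 1 and logarithmic beyond. Each point is a gene, red where called, black bars are list medians and the dashed line is the median of all genes, -0.04; Crym at -4.05 and Slco1a1 at 8.06 lie far from the others, and of these only Crym is called.

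The genes whose pattern was most like that of Crym were taken by Pearson's r over the 6 arrays. The highest were Cfl1, for the actin-severing protein cofilin, at 0.994, Ndufc1, a subunit of respiratory complex I, at 0.994, Spc24, of the kinetochore, at 0.994, Aurka, the mitotic kinase, at 0.994, and Lamtor2 at 0.991. The lowest were Pnisr at -0.988, A1cf, the partner of the apolipoprotein B editing enzyme, at -0.987, F3, which encodes tissue factor, at -0.980, Angptl4, an inhibitor of lipoprotein lipase, at -0.980, and Mrps23, of the mitochondrial ribosome, at -0.979. All arrays are shared between these genes, and with tight groups of 3 the r reflects the step between KO and WT, so that 284 of 9985 genes had an r of at least 0.9 with Crym and 97 had -0.9 or less. The sizes differed widely, from -0.20 for Cfl1 and -1.19 for Lamtor2 to -2.32 for Aurka. Aurka was dim, at 2.66 to 2.76 on the KO arrays, and passed the filter through the WT arrays alone, so the size of its difference is uncertain. For Dio1 the most similar genes were Parp16 at 0.991, Smg9 at 0.983 and Rsf1 at 0.970, all lowest on WT 3.

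**Figure D4:**
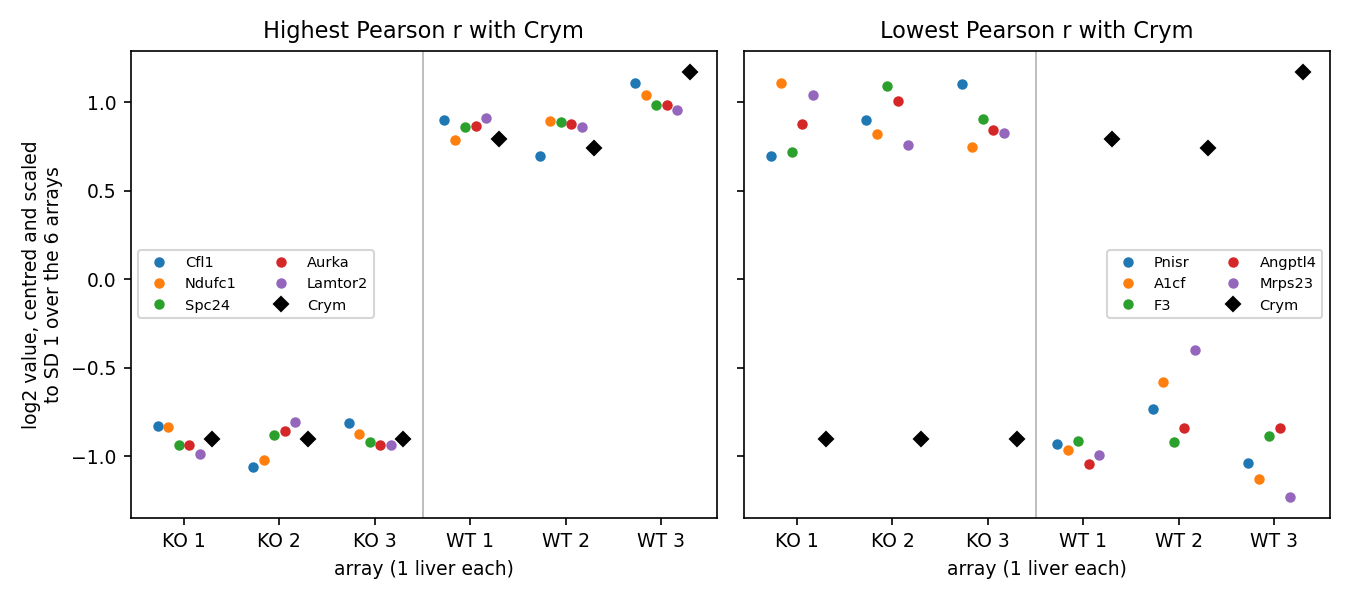
Log2 values of the genes most like Crym (left) and most opposed to it (right), each centred and scaled to SD 1 over the 6 arrays, with Crym as black diamonds; the horizontal axis gives the liver. On the left every gene is low on KO 1 to KO 3 and high on WT 1 to WT 3, as Crym is, and on the right the direction is turned.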

How the data were processed

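The authors deposited log2 expression values per probe set, for which the submitters' processing notes name R 2.9.1 and the GCRMA package, version 2.16.0; the log2 scale was read from the values, 2.185 to 16.327, and further settings are not given in the sources used here. GCRMA models background from probe sequence, and 28.9% of values lay at the lowest value, so dim differences carry little information. Of 45101 probe sets, 34945 had 1 gene symbol in the platform annotation, 932 had several, 9160 had none listed and 64 were controls. Each of 18193 genes took the probe set with the highest mean. The 10009 genes at log2 4 or more on at least 3 arrays were fitted across all genes with limma 3.58.1 in R 4.3.3 (moderated linear model, no covariates, two-sided, Benjamini-Hochberg), with called meaning an adjusted p under 0.05. The number of arrays limits the precision. Intervals are 95% and unadjusted. The fit was tested on simulated data. Probe sets of a gene were also fitted separately, over 17316.

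The 6 genes, the lists, the tests and the alternatives were chosen with earlier results of these data known. Named beside the 6 genes were called list genes, otherwise up to 3 per list with the smallest p, and genes by their correlation with Crym or Dio1. Genes named outside this are identified, apart from markers. The labels name no pairs of mice. Same-numbered deviations correlated at -0.086, -0.079 and -0.141, and differently numbered ones at -0.074 to 0.157. With so few mice these values cannot show whether the mice were paired. Alternatives covered the filter, floor, normalisation, probe sets, variance model, array weights, replicate block and arrays left out. Figures were drawn with matplotlib 3.10.9.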

Additional observations from a re-analysis of the deposited data

How the results depend on the processing

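Over 17 alternatives the Crym difference lay between -4.23 and -3.72, and it was called in 10. It was not called with no filter (-4.05, limma adjusted p = 0.148), with the replicate block (-4.05, 0.116), without KO 3 and WT 2 together (-4.23, 0.124), or without KO 1, KO 2, WT 1 or WT 2 alone (0.083 to 0.126); with single arrays left out it ran from -4.23 to -3.75. The number of called genes, 17 in all, was 3 with no filter, 0 with the replicate block (1235 at an unadjusted p under 0.05), 3 without KO 3 and WT 2, and, with single arrays left out, 6 (KO 1), 1 (KO 2), 140 (KO 3), 1 (WT 1), 1 (WT 2) and 5 (WT 3). The labels pair no mice, so the block result is given once here. The causes were not tested. For Dio1, Slc16a10 and Thrb no alternative turned the sign or made a call; Thrb was not measured at a level of log2 5. The Ttr difference turned to 0.006 with quantile normalisation and 0.0096 with median centring, and that of Thra to 0.0299 and 0.051 and, with single arrays left out, ran from -0.0358 to 0.0204. List medians moved for deiodination and conjugation (0.13 with no filter, 0.35 without KO 3 and WT 2, 0.0897 to 0.333 with single arrays left out), binding (-0.36 without KO 3 and WT 2, -0.316 to -0.105 with single arrays left out), cofactors (-0.0045 with median centring, -0.11 without KO 3 and WT 2, -0.119 to 0.00 with single arrays left out) and T3-induced genes (-0.0233 with median centring, 0.00 without KO 3 and WT 2, -0.178 to -0.0103 with single arrays left out). The transport median of -0.06 turned to 0.0089 with median centring, 0.017 without KO 3, 0.0126 without WT 1 and 0.0322 without KO 3 and WT 2.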

Other observations

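Pdk4, the pyruvate dehydrogenase kinase that is among the T3-induced genes and was chosen after its values were seen, had its highest value on WT 2, at 10.19, against 5.69, 5.70 and 6.42 on the KO arrays and 5.08 and 4.74 on WT 1 and WT 3. WT 2 is the array on which all 10 skeletal muscle markers reached log2 4, Acta1 among them at 13.72. Its difference of -0.73 had overlapping groups (limma adjusted p = 0.824).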
